A study of Mus musculus with 23 samples.

Results

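Gzma, Nkg7, Klrk1, Ccl5 and Gata3 are 5 genes of cytotoxic lymphocytes and of type 2 lymphoid cells, taken by name from the 754 genes of a NanoString nCounter mouse myeloid panel. The panel counts colour-coded probes hybridised to RNA without amplification, and it was run on the left lungs of 23 mice. Mice received 14 instillations into the lungs of organic dust extract, or of phosphate-buffered saline as the vehicle control (called saline here). They were wild-type (WT) or Fat-1, a transgenic mouse that carries a worm desaturase turning omega-6 into omega-3 fatty acids. After dust there were 7 WT lungs, 4 of females and 3 of males, and 6 Fat-1 lungs, 3 of each sex. After saline there were 5 of each genotype, 2 of females and 3 of males. Every lung, also after saline, had been lavaged before the left lobe was taken. The labels give neither age nor strain nor the promoter of the transgene.

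Granzyme A, encoded by Gzma, is a protease of the granules that natural killer (NK) cells and cytotoxic T cells empty onto target cells. Nkg7 encodes a membrane protein of these granules, and Klrk1 encodes NKG2D, a receptor of NK and CD8 T cells for stress-induced ligands. Ccl5 encodes a chemokine (RANTES) whose receptors include Ccr1 and Ccr3; cytotoxic lymphocytes make it, and so do activated macrophages and epithelial cells. Gata3 is the transcription factor that directs T helper 2 cells and group 2 innate lymphoid cells (ILC2), and it is also needed in T cell development. In whole-lung RNA, fewer cells of a type and less RNA per cell cannot be told apart.

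The levels of Gzma, Nkg7 and Klrk1 correlated between dust lungs, and those of Gata3 with any of them did not pass that test, so the 250 bases before the transcription starts of these genes are shown, from RefSeq on GRCm38.p6. RefSeq promoters were matched for 4 of the 5 genes. They lie at chr13:113100982-113101231 on the minus strand for Gzma, chr7:43436888-43437137 on the plus strand for Nkg7, chr6:129623865-129624114 on the minus strand for Klrk1 and chr2:9878601-9878850 on the minus strand for Gata3. Each is written 5′ to 3′ along the gene, and capitals mark TGTGGT, the core letters bound by Runx factors, or its reverse complement.
Gzma: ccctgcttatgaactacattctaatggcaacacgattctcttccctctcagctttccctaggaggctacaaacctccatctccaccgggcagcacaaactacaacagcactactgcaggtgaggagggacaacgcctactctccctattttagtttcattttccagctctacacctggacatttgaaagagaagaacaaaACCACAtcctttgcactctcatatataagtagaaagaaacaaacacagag
Nkg7: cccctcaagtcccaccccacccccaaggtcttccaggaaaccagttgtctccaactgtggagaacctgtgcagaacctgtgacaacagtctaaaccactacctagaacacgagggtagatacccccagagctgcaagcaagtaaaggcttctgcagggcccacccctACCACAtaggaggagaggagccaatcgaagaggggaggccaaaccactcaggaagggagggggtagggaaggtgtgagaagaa
Klrk1: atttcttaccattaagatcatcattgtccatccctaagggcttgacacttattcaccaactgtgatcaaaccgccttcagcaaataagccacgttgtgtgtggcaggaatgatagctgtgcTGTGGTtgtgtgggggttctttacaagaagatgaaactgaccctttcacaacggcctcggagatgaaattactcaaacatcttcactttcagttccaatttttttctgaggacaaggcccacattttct
Gata3: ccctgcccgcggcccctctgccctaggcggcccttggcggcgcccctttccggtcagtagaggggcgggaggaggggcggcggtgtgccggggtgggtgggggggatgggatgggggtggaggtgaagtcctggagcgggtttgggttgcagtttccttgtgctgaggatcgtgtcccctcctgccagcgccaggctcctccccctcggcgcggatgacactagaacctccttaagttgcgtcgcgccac

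The letters TGTGGT occurred once, on either strand, in the windows of Gzma, Nkg7 and Klrk1 and were not in that of Gata3. Of 32851 RefSeq windows of this length, 14.0% held them. CAGGAA, an Ets factor core, occurred in 2 places for Nkg7 and in 1 for Klrk1, against 25.7% of all windows, and GTGTGA, a T-box core, occurred in 1 place for Nkg7, against 12.3%. The GATA letters AGATAA and TGATAA, held by 9.99% and 7.94% of all windows, were in none of these 4 windows. The Gata3 window was the richest in G and C, at 70.0%, against 44.8% for Gzma, 56.0% for Nkg7 and 42.8% for Klrk1 and a median of 52.4% over all windows. These motifs were chosen with the sequences in view, and a match describes letters, not binding.

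The value given for a gene is its probe count multiplied by 1 factor per lung, called the normalized count. Counts below 20 are listed at a floor of 20. That floor acts before scaling, so it hides more in lungs of few counts. The lowest value above it was 84.3 in Fat-1 male saline lung 1 of day 1 and 20.3 in WT female dust lung 2 of day 1. Counts were estimated from the steps between the deposited values, each lung's values being whole multiples of 1 step. Their totals ran from 110453 to 812429 per lung. None of the 5 genes was at the floor in any lung, but their counts were low. The smallest estimated count was 41 for Gzma, 22 for Nkg7, 21 for Klrk1, 55 for Ccl5 and 21 for Gata3, and if these estimates hold, the counting error alone (SD) at those counts is 15.6%, 21.3%, 21.8%, 13.5% and 21.8%. The lungs are grouped by the code of their RNA extract, and for 4 lungs another label disagrees with it. Fat-1 female saline lung 1 of day 1, Fat-1 male dust lung 1 of day 1 and Fat-1 male saline lung 2 of day 2 are WT by their title and characteristics, the last also female, and WT male saline lung 2 of day 2 is a female dust lung by its title. The code also gives a date of extraction, which separates 12 lungs of day 1 from 11 of day 2. On technical measures, 4 further lungs stood apart: Fat-1 male dust lung 1 of day 2 and WT male saline lung 1 of day 2 carried a scanner message on saturation, and WT female saline lung 1 of day 2 and Fat-1 female dust lung 2 of day 1 had unusual positive controls. Results that change without these lungs are given with both values.

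Over all lungs, Gzma and Gata3 were lower and Ccl5 was higher after dust than after saline, while Nkg7 and Klrk1 did not pass the test. That is 3 of the 5 genes at an adjusted p under 0.05, in a comparison that called 53.3% of the 711 genes tested, 43.3% higher and 9.99% lower. Fold changes (log2, dust over saline) come from limma on log2(normalized count + 1), averaged within genotype and sex, with p-values adjusted by Benjamini-Hochberg over all 711 genes. The median gene moved by 0.26 in this comparison, which depends on the scaling: it moved by 0.11 with each lung scaled to its housekeeping genes and by -0.13 with each lung centred on its median. The split of calls moved with it, to 250 higher and 118 lower and to 202 higher and 244 lower, from 308 and 71.

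Gzma, the granule protease, was lower after dust in both genotypes. After saline the 5 WT lungs held 402, 232, 238, 219 and 274 normalized counts. The 5 Fat-1 saline lungs held 256, 240.2, 231, 252 and 147. After dust the 7 WT lungs ran from 76.5 through a median of 156 to 238, and the 6 Fat-1 lungs from 87.0 through 119.9 to 189.5. All 13 dust lungs lay below the saline median of 239, and 6 of them lay below every saline lung. The lowest saline lung, at 147, was Fat-1 male saline lung 2 of day 2, one of the lungs with disagreeing labels, and the ranges overlapped. The means were 149.9 ± 48.1 (SD, n = 13) after dust and 249 ± 63.4 (SD, n = 10) after saline. The fitted change was -0.82 (SE 0.17, limma adjusted p = 0.000633), a fold of 0.567. It kept its side of the threshold when any 1 lung was left out, from -0.93 to -0.71, and with either other scaling. It was -0.82 with day 1 lungs alone (limma adjusted p = 0.00893) and -0.91 with day 2 lungs alone (limma adjusted p = 0.0826), where 1 gene of the panel was called.

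In WT lungs the change of Gzma was -0.85 (SE 0.23, limma adjusted p = 0.0106) and in Fat-1 lungs -0.79 (SE 0.24, limma adjusted p = 0.0175). Gzma was 1 of 2 members called lower in WT lungs, where 35.3% of genes were called and 4.64% called lower, and the 1 member called in Fat-1 lungs, where 38.1% were called and 5.91% called lower. Each of these calls was lost when 1 saline lung was left out. Without WT female saline lung 1 of day 1, the highest at 402, the WT change was -0.63 (limma adjusted p = 0.0896). Without Fat-1 female saline lung 1 of day 1 the Fat-1 change was -0.75 (limma adjusted p = 0.0619), and without the 4 lungs of disagreeing labels it was -0.91 (limma adjusted p = 0.0737). Without the 4 lungs in doubt on technical measures it was -0.77 (limma adjusted p = 0.0576).

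Gata3, the factor of type 2 lymphoid cells, was the gene of the 5 with the most dust lungs outside the saline range. The 5 WT saline lungs held 94.0, 113.5, 93.4, 106.5 and 85.3 normalized counts, and the 5 Fat-1 saline lungs 143, 88.5, 87.5, 136 and 117. The 4 WT dust lungs of day 1 held 81.6, 52.4, 36.96 and 40.0, and the 3 of day 2 held 78.6, 79.9 and 63.5. The 4 Fat-1 dust lungs of day 1 held 71.5, 63.8, 57.9 and 66.1, and the 2 of day 2 held 96.5 and 101. Of the 13 dust lungs, 11 lay below every saline lung, and the 2 that did not were the Fat-1 dust lungs of day 2. The ranges did not overlap among WT lungs, as for 8.16% of genes in either direction and 1.41% with dust lower, nor among lungs of day 1, as for 32.2% and 5.34%.

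The mean of Gata3 was 68.4 ± 19.3 (SD, n = 13) after dust and 106.4 ± 20.5 (SD, n = 10) after saline. The fitted change was -0.67 (SE 0.16, limma adjusted p = 0.00217), a fold of 0.630, and stayed past the threshold when any 1 lung was left out, from -0.75 to -0.58. It was -0.91 with day 1 lungs alone (limma adjusted p = 0.0239) and -0.27 with day 2 lungs alone (limma adjusted p = 0.0858). It was -0.75 in WT lungs (SE 0.22, limma adjusted p = 0.0167) and -0.58 in Fat-1 lungs (SE 0.23, limma adjusted p = 0.0553). The WT call was lost without either WT female saline lung, at -0.80 and -0.71 (limma adjusted p = 0.0504 and 0.0508). It was also lost with a common floor of 84.3 in every lung, at -0.22 (limma adjusted p = 0.165); that floor lies above 11 of the 13 dust values of Gata3 and below all 10 saline values. The Fat-1 difference passed with other scalings, at -0.97 when lungs were centred on their median (limma adjusted p = 0.0102) and -0.70 when scaled to housekeeping genes (limma adjusted p = 0.0307), and in 5 of 23 fits that left out 1 lung, from -0.76 to -0.58.

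Ccl5, the chemokine, had the widest spread of the 5 genes, and its spread was among dust lungs. The 10 saline lungs ran from 207 through a median of 297 to 419.7 normalized counts. The 4 WT dust lungs of day 1 held 1073, 872, 1117 and 892, and the 3 of day 2 held 261, 521 and 218. The 4 Fat-1 dust lungs of day 1 held 675, 1165, 261 and 215, and the 2 of day 2 held 303 and 492. Of the dust lungs, 8 of 13 lay above every saline lung, 6 of them of day 1 and 2 of day 2, and the other 5 lay within the saline range. The highest, Fat-1 female dust lung 2 of day 1, is one of the lungs in doubt.

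The mean of Ccl5 was 620.5 ± 365 (SD, n = 13) after dust and 296 ± 66.4 (SD, n = 10) after saline. The fitted change was 0.77 (SE 0.30, limma adjusted p = 0.0414), a fold of 1.70. This call was at the edge: it held in 7 of 23 fits that left out 1 lung, with changes from 0.65 to 0.93, and it was lost without the 4 lungs in doubt, at 0.58 (limma adjusted p = 0.193). It was also lost with each lung centred on its median, at 0.38 (limma adjusted p = 0.190), and scaled to housekeeping genes, at 0.62 (limma adjusted p = 0.0703). With extraction day as a block it was 0.66 (limma adjusted p = 0.0710), and without the lungs of disagreeing labels 0.77 (limma adjusted p = 0.138). With groups taken from the characteristics it was 0.70 (limma adjusted p = 0.104), and with no filter on low values 0.77 (limma adjusted p = 0.0544). With day 1 lungs alone the change was 1.30 (SE 0.17, limma adjusted p = 0.00201) and with day 2 lungs alone 0.084 (SE 0.24, limma adjusted p = 0.816). In WT lungs it was 1.02 (SE 0.42, limma adjusted p = 0.0697) and in Fat-1 lungs 0.51 (SE 0.44, limma adjusted p = 0.370). The WT value passed without WT female dust lung 2 of day 2, at 1.24, or without WT male dust lung 1 of day 2, at 1.36 (limma adjusted p = 0.0181 and 0.0111).

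Nkg7, the granule membrane protein, had nearly the same mean after dust, 99.5 ± 39.2 (SD, n = 13), as after saline, 98.7 ± 20.8 (SD, n = 10). The dust lungs ran from 50.4 through a median of 87.7 to 161 and the saline lungs from 72.7 through 95.5 to 143. Dust lungs lay on both sides, with 5 below and 2 above every saline lung. The fitted change was -0.13 (95% interval -0.53 to 0.28, limma adjusted p = 0.610).

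Klrk1, the NKG2D receptor, had a mean of 122.6 ± 41.3 (SD, n = 13) after dust and 117.7 ± 23.3 (SD, n = 10) after saline. The dust lungs ran from 67.2 through 122.6 to 216 and the saline lungs from 88.5 through 112 to 156, with 3 dust lungs below and 2 above every saline lung. The fitted change was -0.035 (95% interval -0.37 to 0.30, limma adjusted p = 0.874). The call on both genes depended on the scaling. With each lung centred on its median, Nkg7 changed by -0.52 (limma adjusted p = 0.0170) and Klrk1 by -0.43 (limma adjusted p = 0.0135); scaled to housekeeping genes, they changed by -0.28 and -0.19 (limma adjusted p = 0.212 and 0.284).

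**Figure D1:**
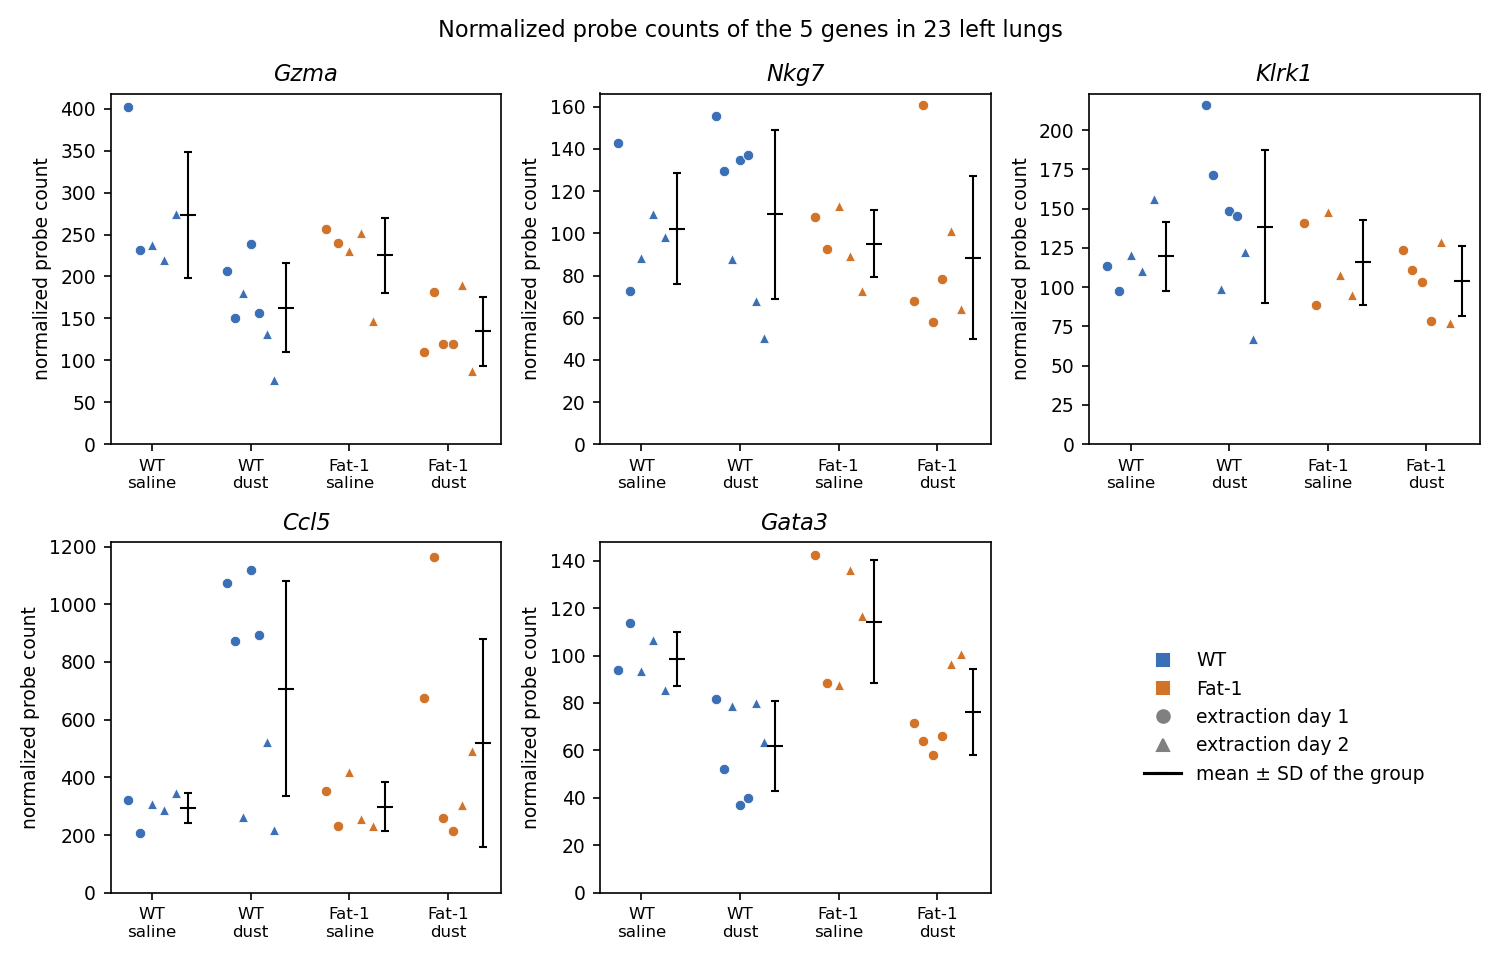
Normalized probe counts (vertical axes, linear, from 0) of the 5 genes in each of 23 left lungs, by genotype and exposure; circles are lungs of extraction day 1, triangles of day 2, and black marks the mean ± SD. Gzma and Gata3 sit lower after dust in both genotypes, Ccl5 reaches 1165 after dust and stays under 420 after saline, and Nkg7 and Klrk1 overlap throughout.

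**Figure D2:**
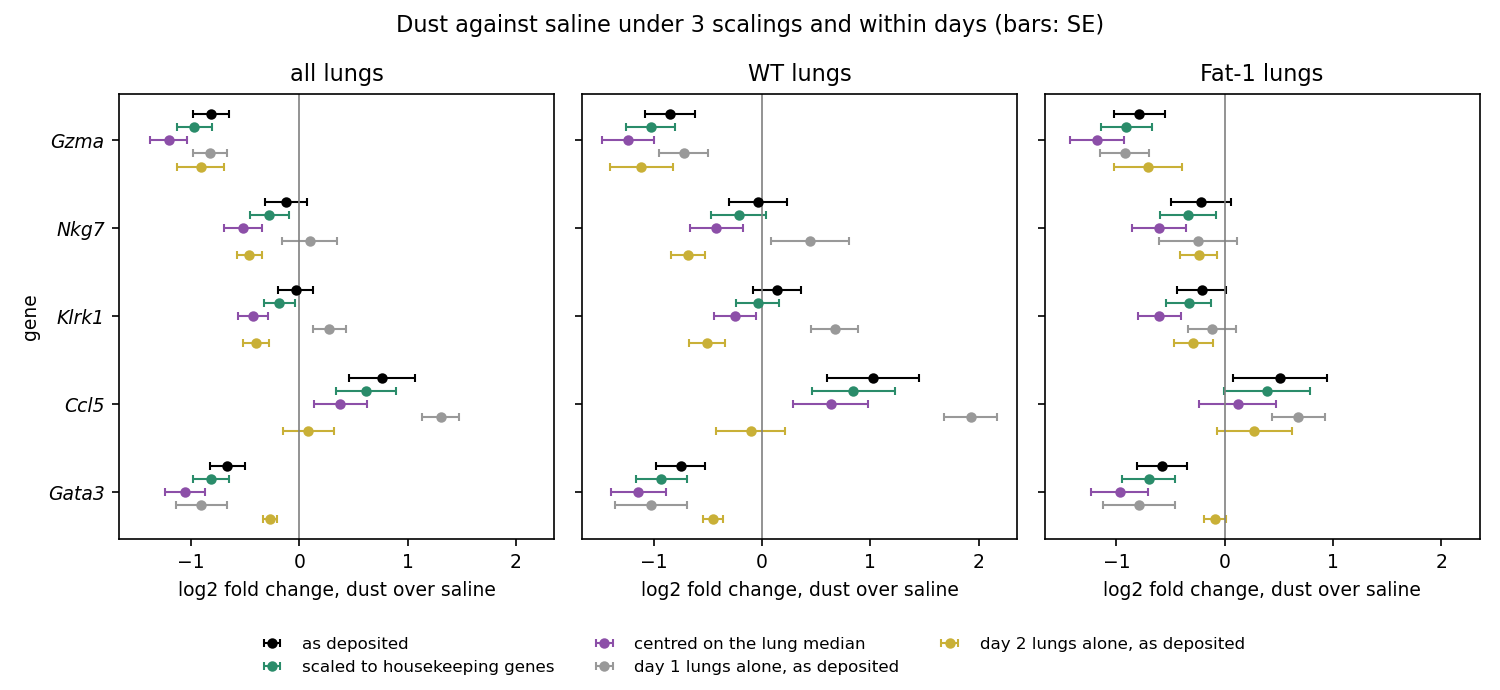
Log2 fold change of dust over saline (horizontal axes) of the 5 genes over all lungs, WT lungs and Fat-1 lungs, with bars of 1 SE, under 3 scalings and with the lungs of each day alone. Gzma and Gata3 lie below 0 in every setting drawn, Ccl5 moves from 1.30 with day 1 lungs to 0.084 with day 2 lungs, and Nkg7 and Klrk1 cross 0.

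Ratios of 2 genes within a lung do not contain the lung's scaling factor, so they show how the 5 genes moved against each other whatever the scaling. The 10 ratios were tested by an exact permutation of exposure within genotype (365904 permutations, two-sided, adjusted over the 10), a test added after the data had been seen. Gzma fell relative to Nkg7. In saline lungs the log2 ratio of Gzma to Nkg7 ran from 1.01 to 1.67 (mean 1.32 ± 0.24, SD, n = 10), and in dust lungs from 0.18 to 1.05 (mean 0.62 ± 0.32, SD, n = 13). Of the 13 dust lungs 11 lay below every saline lung. The change was -0.70 (fold 0.616, exact permutation adjusted p = 0.000246).

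Gzma also fell relative to Klrk1, by 0.77 on the log2 scale (fold 0.586, exact permutation adjusted p = 0.000246), with 10 of 13 dust lungs below every saline lung. Relative to Ccl5 it fell by 1.59 (fold 0.332, exact permutation adjusted p = 0.000246), again with 10 of 13 below. The ratio of Nkg7 to Klrk1, both genes of cytotoxic cells, changed by -0.072 (exact permutation adjusted p = 0.646), and dust lungs lay on both sides of the saline lungs. The ratio of Gzma to Gata3, the pair that was called lower, changed by -0.12 (exact permutation adjusted p = 0.646).

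Ccl5 rose relative to each of the other 4 genes. The ratio of Nkg7 to Ccl5 fell by 0.89 and that of Klrk1 to Ccl5 by 0.82 on the log2 scale (exact permutation adjusted p = 0.00233 and 0.00272), with 10 and 9 of 13 dust lungs below every saline lung. The ratio of Ccl5 to Gata3 rose by 1.47 (fold 2.78, exact permutation adjusted p = 0.00242), and 8 dust lungs lay above every saline lung. Klrk1 rose relative to Gata3 by 0.65 (exact permutation adjusted p = 0.0197), and the ratio of Nkg7 to Gata3 changed by 0.58 (exact permutation adjusted p = 0.0640). The values stood further apart among lungs of day 1: Ccl5 to Gata3 changed by 2.23 in day 1 lungs and by 0.47 in day 2 lungs, and Gzma to Nkg7 by -0.93 and -0.47. With the 5 dust and 6 saline lungs of day 2 alone none of the 10 ratios passed the exact test, and the ratio of Klrk1 to Gata3 turned to -0.055. So few lungs allow few arrangements of exposure, so a single ratio could hardly pass on day 2 and that outcome decides little.

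**Figure D3:**
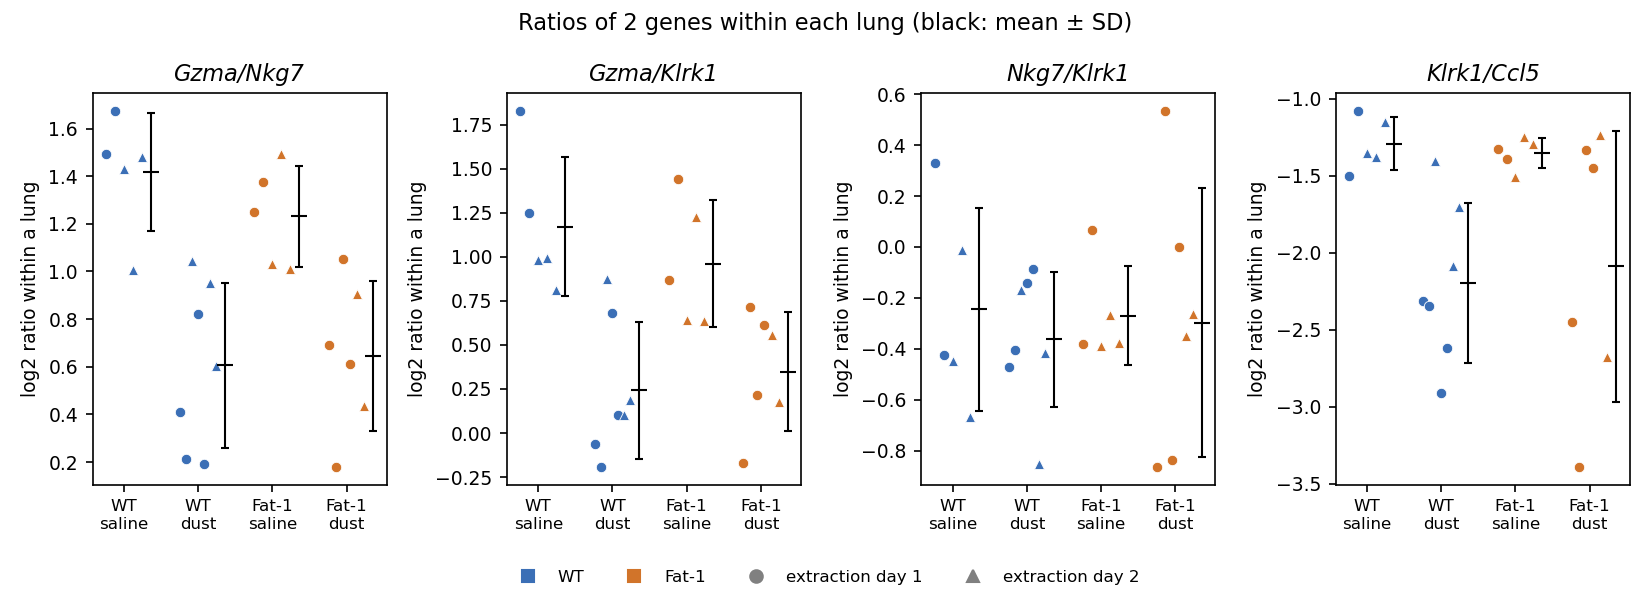
Log2 ratios of 2 genes within each lung (vertical axes) by genotype and exposure; circles are lungs of day 1, triangles of day 2, black marks the mean ± SD. Gzma to Nkg7 and Gzma to Klrk1 are lower after dust in both genotypes, Nkg7 to Klrk1 overlaps, and Klrk1 to Ccl5 stays between -1.51 and -1.08 after saline and spreads down to -3.39 after dust.

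No difference between genotypes was detected for any of the 5 genes. The question of the design is whether the omega-3 background changes the response to dust, and the difference of the dust responses (Fat-1 minus WT) was 0.061 for Gzma (95% interval -0.64 to 0.76), -0.18 for Nkg7 (-0.99 to 0.63), -0.35 for Klrk1 (-1.02 to 0.31), -0.51 for Ccl5 (-1.79 to 0.77) and 0.17 for Gata3 (-0.51 to 0.85), each with a limma adjusted p of 0.999. These intervals allow differences of well over 0.5 on the log2 scale for every gene. Among all 711 genes limma called 0 (0%), with 21 at an unadjusted p under 0.05.

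After dust, Fat-1 lungs compared with WT lungs gave -0.21 for Gzma, -0.28 for Nkg7, -0.34 for Klrk1, -0.45 for Ccl5 and 0.35 for Gata3 (limma adjusted p = 0.979 for each). Over all genes, 0 (0%) were called and 22 had an unadjusted p under 0.05. After saline the 5 differences lay between -0.27 for Gzma and 0.18 for Gata3 (limma adjusted p = 1 for each), with 0 genes (0%) called and 10 at an unadjusted p under 0.05. Within day 1 dust lungs the values stood further apart: Nkg7 had a mean of 139 ± 11.3 (SD, n = 4) in WT and 91.3 ± 47.1 (SD, n = 4) in Fat-1 lungs. Klrk1 had 170.4 ± 32.5 and 104 ± 19.1 in the same lungs. Of these Fat-1 lungs the lowest in Nkg7, at 57.9, was male dust lung 1, which is WT by its title and characteristics. The highest, at 161, was female dust lung 2, which is in doubt on technical measures. Fitted on day 1 lungs alone, the Fat-1 minus WT differences after dust were -0.72 for Nkg7, -0.71 for Klrk1 and -1.10 for Ccl5 (limma adjusted p = 0.296, 0.124 and 0.0721), none past the threshold. On day 2 they were 0.37, 0.21 and 0.44 (limma adjusted p = 0.467, 0.660 and 0.631).

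Among dust lungs, Ccl5, Nkg7, Klrk1 and Gzma had lower and Gata3 higher values on day 2 than on day 1. Ccl5 and Gata3 passed the test with either other scaling, and Ccl5 also with a common floor. With the deposited values, all lungs and no further term, none of the 5 passed. Day 2 minus day 1 was -1.08 for Ccl5, -0.63 for Nkg7, -0.52 for Klrk1, -0.40 for Gzma and 0.54 for Gata3 (limma adjusted p = 0.0567, 0.0777, 0.0731, 0.181 and 0.0712); 6.89% of genes were called. The mean of Ccl5 was 784 ± 372 (SD, n = 8) on day 1 and 359 ± 138 (SD, n = 5) on day 2. The mean of Gata3 was 58.8 ± 15.3 on day 1 and 83.9 ± 15.1 on day 2. Among saline lungs the day differences lay between -0.27 for Gzma and 0.23 for Ccl5 (limma adjusted p = 1 for each), where 0.141% of genes were called.

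The test of whether the dust response itself differed between days gave -1.30 for Ccl5 (SE 0.51, limma adjusted p = 0.182), -0.72 for Klrk1 (limma adjusted p = 0.180), 0.61 for Gata3 (limma adjusted p = 0.254), -0.61 for Nkg7 (limma adjusted p = 0.327) and -0.13 for Gzma (limma adjusted p = 0.826); 0.844% of genes were called. These values turned on 1 lung. Without Fat-1 male dust lung 1 of day 2, which carried the scanner message and held 492 counts of Ccl5, the difference for Ccl5 was -1.91 (limma adjusted p = 0.000479) and that for Klrk1 -0.81 (limma adjusted p = 0.0456). Without that lung the day difference within dust was -1.69 for Ccl5 (limma adjusted p = 4.37e-05), -0.80 for Nkg7 and -0.61 for Klrk1 (limma adjusted p = 0.0175 and 0.0242), and 286 genes were called in place of 49. Without the 4 lungs in doubt, day 2 minus day 1 after dust was -1.61 for Ccl5, -0.68 for Klrk1 and -0.71 for Nkg7 (limma adjusted p = 0.000282, 0.0155 and 0.0435). Day also went largely with the position on the scanner stage that the file headers give: 10 of 12 lungs of day 1 were at one position and 9 of 11 of day 2 at the other. With stage position as a block, a fit added after the data had been seen, day 2 minus day 1 in dust lungs passed for Ccl5, at -1.34, and Gata3, at 0.68 (limma adjusted p = 0.0283 and 0.0408), and 108 genes were called. The day difference of the dust response passed for none of the 5 genes in that fit, at -1.16 for Ccl5 and 0.53 for Gata3 (limma adjusted p = 0.289 and 0.386), where 3 genes were called. The labels do not say whether that date is of the organ or of the RNA.

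Across dust lungs the levels of Gzma, Nkg7 and Klrk1 correlated with each other, and those of Nkg7 and Klrk1 with Ccl5. Of 10 pairs in each exposure, 5 passed a permutation test in dust lungs (n = 13, adjusted over the 20) and 1 in saline lungs (n = 10). The strongest in dust was Gzma with Nkg7, at r = 0.83 and rho = 0.82 (permutation adjusted p = 0.00480 and 0.0100). The other 4 were Nkg7 with Ccl5 (r = 0.77, rho = 0.79), Nkg7 with Klrk1 (0.74, 0.70), Klrk1 with Ccl5 (0.73, 0.71) and Gzma with Klrk1 (0.73, 0.71), each with a permutation adjusted p of 0.0157 for r. In saline lungs Klrk1 and Ccl5 gave r = 0.91 and rho = 0.92 (permutation adjusted p = 0.00480 and 0.0100). Gata3 gave r between -0.38 and -0.27 with the other 4 genes in dust lungs and between -0.29 and -0.18 in saline lungs, none past the threshold.

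These relations are limited by few lungs and by the factor that all genes of a lung share. The lungs of an exposure also mix extraction days, genotypes and sexes, which the permutation did not hold fixed. Shifts shared by such groups were not separated from these relations. Without the 2 lungs farthest from the median of the first gene, r was 0.76 for Gzma with Nkg7, 0.50 for Gzma with Klrk1, 0.79 for Nkg7 with Klrk1, 0.66 for Nkg7 with Ccl5 and 0.63 for Klrk1 with Ccl5 in dust lungs, and 0.90 for Klrk1 with Ccl5 in saline lungs; 0 of 20 pairs then passed. The relation of Gzma and Klrk1 rests on those lungs. Leaving out either WT female dust lung 1 of day 1 or WT male dust lung 1 of day 2 took the 6 pairs to 2, and in dust lungs left Gzma with Nkg7 as the 1 pair past the threshold. The other 4 dust pairs then had r from 0.69 to 0.73 (permutation adjusted p = 0.0511) without the first lung and from 0.63 to 0.72 (permutation adjusted p = 0.0631 to 0.0692) without the second. Gzma with Klrk1 was also lost without Fat-1 male dust lung 1 of day 2, at 0.68 (permutation adjusted p = 0.0519). Within the 8 dust lungs of day 1, r was 0.84 for Gzma with Nkg7, 0.83 for Nkg7 with Ccl5, 0.76 for Klrk1 with Ccl5, 0.62 for Nkg7 with Klrk1 and 0.61 for Gzma with Klrk1. In that order the unadjusted permutation p was 0.0147, 0.0136, 0.0272, 0.104 and 0.108. No r was computed over the 5 dust lungs of day 2. Among the 6 saline lungs of day 2, Klrk1 with Ccl5 gave 0.92. With lungs centred on their median, the dust r of Nkg7 with Ccl5 was 0.63 and of Klrk1 with Ccl5 0.54.

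**Figure D4:**
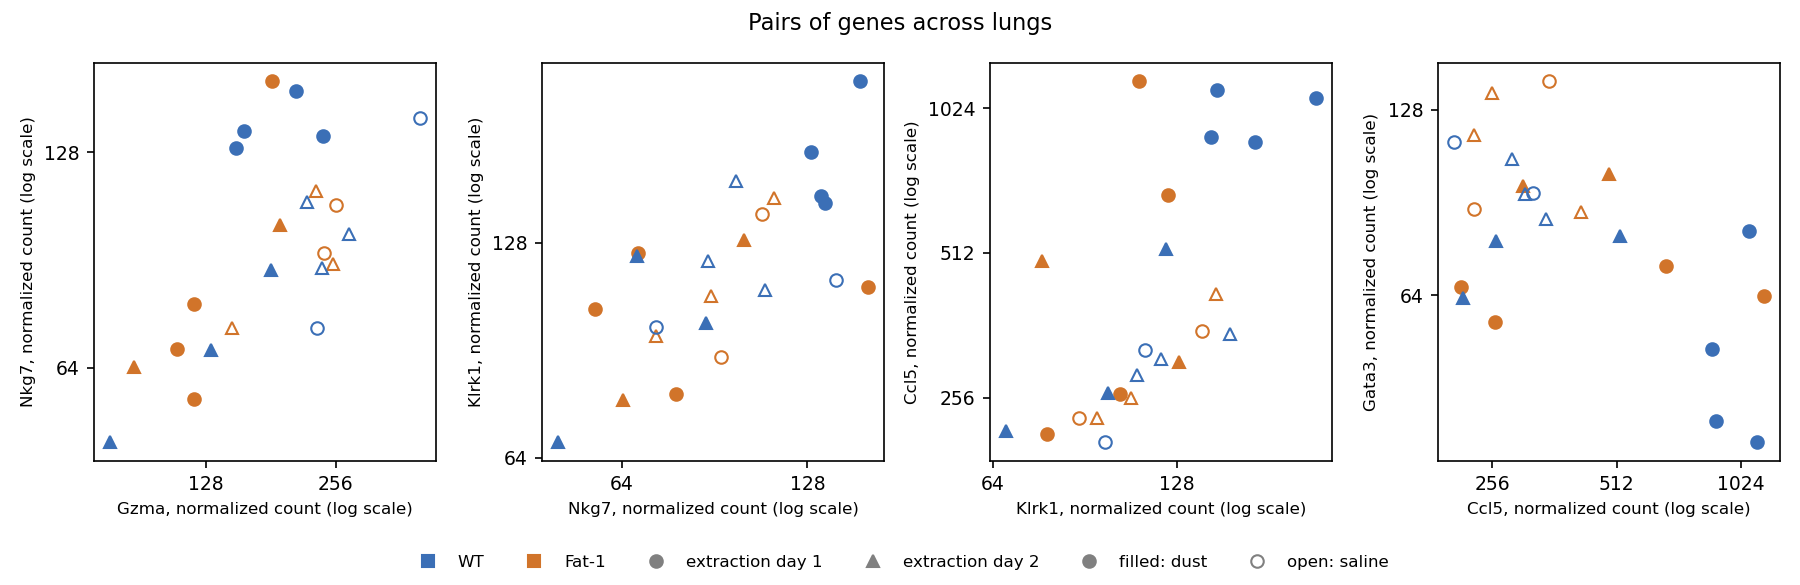
Normalized counts of pairs of genes across lungs (both axes logarithmic); filled symbols are dust lungs, open symbols saline lungs, blue WT, orange Fat-1, circles day 1 and triangles day 2. Gzma and Nkg7 rise together among dust lungs, which are shifted to lower Gzma, and the 6 lungs with the highest Ccl5 are dust lungs of day 1.

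Genes whose levels closely followed each of the 5 were found from deviations from the 8 group means over 23 lungs, among 470 genes above the floor in all lungs. For Gzma they were Ms4a1, the B cell antigen CD20 (r = 0.85), Nkg7 (0.82) and H2-Ob, a class II accessory chain (0.81), against a median of 0.10 over all genes. For Nkg7 they were Top2a, a topoisomerase of dividing cells (0.86), Gzma (0.82) and Cd180, a receptor of B cells and myeloid cells (0.78), against 0.22. Klrk1 followed Pik3cg, a lipid kinase of leukocytes (0.78), Gusb (0.76) and H2-DMb2 (0.74), against 0.26. By ranks these 3 were lower, with rho of 0.64, 0.55 and 0.68, against a median of 0.24. Ccl5 followed Itgam, the integrin chain CD11b (0.93), and Il17ra (0.92), against 0.37. Gata3 followed Tm7sf3 (0.68) and Acad10 (0.67), against -0.082. Extraction day was not held fixed in these deviations, so shifts shared by the lungs of a day were not separated from these r values.

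Few other genes of cytotoxic cells are on this panel. Of 23 listed, 5 were found under the listed symbol. They were the 4 described here and Ifng, the interferon of NK and T cells, which was at the floor in all lungs. Cd244, listed as Cd244a, is also on the panel and was left out of these counts. Of the 4 described here, 1 was called higher and 1 lower, with a median change of -0.081 against 0.26 over all genes tested. Of 11 T cell genes measured, 6 were called higher and 0 lower, beside 43.3% and 9.99% over all genes, with a median of 0.59 against 0.26. Icos, a costimulatory receptor, had a mean of 125 ± 91.1 (SD, n = 13) after dust and 32.3 ± 14.3 (SD, n = 10) after saline, a change of 1.76 (limma adjusted p = 0.000161). For Icos 4 of 10 saline lungs were at the floor, so its saline mean and change depend partly on that floor. Ctla4, an inhibitory receptor, changed by 1.96 (limma adjusted p = 0.000640), with 7 of 10 saline lungs at the floor, and Cd28 by 0.59 (limma adjusted p = 0.0291). Cd247, the zeta chain of the T cell receptor that NK cells also use, changed by 0.38 (limma adjusted p = 0.107).

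Of 20 type 2 and ILC2 genes tested, 7 were called higher and 1, Gata3, lower, beside 43.3% higher and 9.99% lower over all genes, so these shares do not exceed those of the panel. Il4ra, the receptor chain for IL-4 and IL-13, had a mean of 1182 ± 437 (SD, n = 13) after dust and 554 ± 97.8 (SD, n = 10) after saline, a change of 1.03 (limma adjusted p = 0.000386). Chil3, a chitinase-like protein of alternatively activated macrophages, changed by 1.23 (limma adjusted p = 0.000977) and Ccl17, a chemokine for Ccr4, by 1.74 (limma adjusted p = 0.00174). Of the cytokines, Il5 and Il25 were at the floor in all lungs, Il4 in 20 of 23 and Il13 in 10. Il33, the alarmin that acts on ILC2, was at the floor in 0 lungs and changed by 0.63 (limma adjusted p = 0.00939), from 917 ± 252 (SD, n = 10) after saline to 1496 ± 535 (SD, n = 13) after dust. Il1rl1, the IL-33 receptor of ILC2, changed by -0.15 (limma adjusted p = 0.579), from 40.3 ± 12.8 after saline to 36.9 ± 12.8 after dust.

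In the list of GATA and T helper subset factors, 3 of 9 were called higher and 3 lower, beside 43.3% and 9.99% over all genes. The lower ones were Gata2, Gata3 and Gata6. This list is short, and the number of panel genes called lower depends on the scaling, from 71 to 244. Gata2, a factor of mast cells, progenitors and endothelium, changed by -0.82 (limma adjusted p = 0.0223) and Gata6, a factor of lung epithelium and tissue macrophages, by -0.27 (limma adjusted p = 0.0357), while Gata1 was at the floor in 21 of 23 lungs. Irf4 changed by 0.82 (limma adjusted p = 0.00476), with 3 of 10 saline lungs at the floor, and Bcl6 by 0.32 (limma adjusted p = 0.0338).

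Of 13 receptors and chemokine relatives of Ccl5, 10 were called higher and 0 lower, beside 43.3% and 9.99% over all genes. Their median change was 1.81, beside 0.77 for Ccl5 itself. Ccr1 changed by 2.37 (limma adjusted p = 4.96e-05), while Ccr3, the eosinophil receptor, changed by -0.026 (limma adjusted p = 0.919), with 16 of 23 lungs at the floor. Ccl3, another ligand of Ccr1, changed by 3.14 (limma adjusted p = 4.96e-05). Of the genes around NKG2D and NK cell support, 2 of 6 tested were called higher and 0 lower, beside 43.3% and 9.99% over all genes. They were Tyrobp, an adaptor shared with myeloid receptors, at 1.39 (limma adjusted p = 0.000131) and Il12b at 0.80 (limma adjusted p = 0.00680). Il12b was at the floor in 9 of 10 saline and 4 of 13 dust lungs. Il15, the NK survival cytokine, changed by 0.36 (limma adjusted p = 0.0913), with 7 of 10 saline and 3 of 13 dust lungs at the floor. Il12a, Il2 and Il27 were at the floor in all lungs.

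Markers of other cell types moved with dust as well, beside each of these results. Over all genes tested, 43.3% were called higher and 9.99% lower, to be set beside the counts that follow. The summed level of 12 neutrophil genes ran from 1962 to 3994 in saline lungs and from 2293 to 44044 in dust lungs, with 9 of 11 tested called higher, Elane at the floor in all lungs, and a median of 24066 in day 1 and 4984 in day 2 dust lungs. That of 12 macrophage genes ran from 3126 to 4590 and from 4950 to 21289, with 10 of 12 called higher. The 4 endothelial genes, Cdh5, Tek, Thbd and Flt1, were all called lower, with sums from 7844 to 10225 in saline lungs and from 2026 to 8257 in dust lungs. Of 4 B cell genes 2 were called higher, with sums from 365 to 663 in saline lungs and from 382 to 1208 in dust lungs. They were Btk, which changed by 0.97, and Fcer2a, which changed by 1.29. Fcer2a was at the floor in all 10 saline lungs and in 3 of 13 dust lungs, so its change depends partly on that floor. Ms4a1 changed by -0.011 and Cxcr5 by -0.29, neither past the threshold. Of 2 epithelial genes 1 was called higher. The part of these cells in the changes of Gzma, Ccl5 and Gata3 was not tested.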

How the data were processed

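Left-lung RNA of 23 mice was counted on a NanoString panel of 734 endogenous and 20 housekeeping genes. The authors deposited 1 table whose values are a signal, the probe count times 1 factor per lung, as tested on the values (100% whole multiples per lung, within 0.1 of a step). Counts under 20, and scaled values under 20, are listed at 20. The labels do not name the software behind it. The deposited table also holds raw counts of control probes, used to look for lungs that stand apart. No count model was run, since the values are scaled.

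Values were taken as log2(value + 1) and fitted with limma 3.58.1 in R 4.3.3, with 8 group means, all 23 lungs (15 residual degrees of freedom) and a two-sided test. Genes at the floor in all lungs (43) were left out, and p-values were adjusted over 711 genes. Day comparisons added a day term for each exposure. Correlations used 100000 permutations and ratios an exact permutation test, with scipy 1.17.1. Scripts were tested on simulated data. Groups came from the extract code, since the labels disagree for 4 lungs. Counting errors cover counting only; lungs of 1 group differed by more than that, with a chi-square per degree of freedom of 4.62 or more.

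The 5 genes, the gene lists, the motifs and the ratio tests were chosen with earlier results of these data known. The named genes are the 5, the 3 most alike to each, and up to 4 of each list with the smallest p, beside further list members chosen after their values were seen; a few genes that this rule selects are not reported here. Alternatives were other scalings, pseudocounts, floors, labels, blocks (day, scanner stage position, replicate number), days and left-out lungs.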

Additional observations from a re-analysis of the deposited data

Results flagged for a closer look

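Of 60 groups of 4 to 10 lungs looked at for the 5 genes, 5 held a lung whose gap to its neighbour passed the 95% limit of Dixon's test, where chance gives about 1 in 20 groups; several groups share lungs. Gzma stood at 402 normalized counts in WT female saline lung 1 of day 1, apart from the next saline lung at 274, and again apart from the other day 1 saline lungs, the next at 256. Gzma was lowest among Fat-1 saline lungs at 147 in Fat-1 male saline lung 2 of day 2, the next at 231; its labels disagree. Gzma was highest among Fat-1 dust lungs of day 1 at 182 in Fat-1 female dust lung 2, the next at 120.01; its positive controls were unusual. Gata3 was lowest among WT female dust lungs at 36.96 in lung 2 of day 1, the next at 78.6.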

How the results depend on the processing

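Changes below are log2, and counts are genes past the threshold by limma. Of 510 alternatives of the 5 genes, 472 kept direction and side of the threshold. For dust against saline, day 2 lungs alone lost Gzma (-0.91), Ccl5 (0.084) and Gata3 (-0.27), and left 1 gene called of 379. Centring gave calls to Nkg7 (-0.52) and Klrk1 (-0.43) and took that of Ccl5 (0.38), which was also lost with housekeeping scaling (0.62), no filter (0.77), groups from the characteristics (0.70), without lungs of disagreeing labels (0.77), with a day block (0.66) and without the lungs in doubt (0.58). No pairing of lungs by replicate number was evident. Deviations correlated above 0.1 in 24 of 65 same-numbered pairs of 1 day and in 19 of 49 pairs of 1 day with other numbers. Deviations from the means of so few lungs cannot exclude pairing. A replicate block within day gave Ccl5 0.51 and 160 genes in Fat-1, against 271.
In WT, Gzma was lost with day 1 (-0.72) or day 2 (-1.12) alone and Gata3 with day 1 (-1.03), day 2 (-0.45) or a common floor (-0.22); Ccl5 passed on day 1 (1.93). The 251 genes became 139 without disagreeing labels and 1 on day 2. In Fat-1, Gzma was lost on day 2 (-0.71), without disagreeing labels (-0.91) and without lungs in doubt (-0.77); centring called Klrk1 (-0.60), and Gata3 passed when centred (-0.97), scaled to housekeeping genes (-0.70), with pseudocount 20 (-0.48) or a common floor (-0.33). The 271 genes became 167 by characteristics, 69 without disagreeing labels, 6 on day 2 and 122 without lungs in doubt. On day 2 the genotype difference called 4 genes, Fat-1 against WT 3 after dust and 1 after saline, the last 15 without lungs in doubt.
For the day difference in dust, lungs in doubt left out called Nkg7 (-0.71), Klrk1 (-0.68) and Ccl5 (-1.61); Ccl5 also passed centred (-0.89), by housekeeping genes (-1.01) or with a common floor (-1.08), and Gata3 centred (0.73) or by housekeeping genes (0.61). Stage position as a block called Ccl5 (-1.34) and Gata3 (0.68), with 108 genes in dust, 0 in saline and 3 for the day difference of the response. The 49 genes became 76 centred, 93 with a common floor, 13 without disagreeing labels and 314 without lungs in doubt; the 1 in saline became 3 with a common floor. For the day difference of the response, Ccl5 passed without lungs in doubt (-1.88), and the 6 genes became 15 centred, 15 by housekeeping genes, 3 with pseudocount 20, 3 without a filter, 0 with a common floor and 167 without lungs in doubt. The 6 correlated pairs became 3 centred and 0 without the 2 farthest lungs. The ratio of Klrk1 to Gata3 turned to -0.055 on day 2. Leaving out each lung in turn gave, over all lungs, Ccl5 0.65 to 0.93; in WT, Gzma -1.07 to -0.63, Ccl5 0.85 to 1.36, Gata3 -0.83 to -0.61 and 117 to 307 genes; in Fat-1, Gzma -0.91 to -0.66, Gata3 -0.76 to -0.41 and 164 to 336 genes; for the genotype difference 0 to 1 genes, and for Fat-1 against WT 0 to 5 after dust and 0 to 2 after saline; for the days in dust, Nkg7 -0.80 to -0.42, Klrk1 -0.71 to -0.32, Ccl5 -1.69 to -0.81 and 2 to 286 genes, in saline 0 to 2; for the day difference of the response, Klrk1 -0.91 to -0.52, Ccl5 -1.91 to -1.04 and 2 to 185 genes; and 2 to 7 correlated pairs. The cause was not tested, beside fewer lungs on a single day (3 to 4 residual degrees of freedom).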

Other observations

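Female lungs had the higher mean in 19 of 20 comparisons of sexes within a genotype and exposure over the 5 genes; the exception was Klrk1 in WT saline lungs. The genes of a lung share 1 scaling factor and no test of sex was made, so this is a description. The same lungs also enter the comparisons of each gene. The share of all panel genes with the higher mean in females was not counted. Fat-1 male saline lung 2 of day 2 and WT male saline lung 2 of day 2 are female by another label. In Fat-1 dust lungs, Gzma had a mean of 160.5 ± 44.0 (SD, n = 3) in females and 108.9 ± 19.0 (SD, n = 3) in males, and Nkg7 109.96 ± 47.0 and 66.9 ± 10.5. Klrk1 in Fat-1 saline lungs was 144 ± 5.11 (SD, n = 2) in females and 97.0 ± 9.80 (SD, n = 3) in males. For Gata3 in Fat-1 dust lungs the sexes lay closer, at 77.3 ± 17.1 and 75.0 ± 22.8. In WT dust lungs Gata3 had 69.3 ± 21.6 (SD, n = 4) in females and 51.9 ± 11.7 (SD, n = 3) in males.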
